A study of Homo sapiens with 12 samples.

Results

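The 73 genes described here encode the protein subunits of the cytosolic ribosome. They are the RefSeq protein-coding genes on chromosomes 1 to 22 of the human genome (GRCh38) with symbols of the RPL or RPS series, together with RPLP0, RPLP1, RPLP2 and RPSA. Of the 73, 43 belong to the large subunit and 30 to the small subunit, out of 19122 protein-coding genes on the same chromosomes. The measurement was ATAC-seq, in which a transposase inserts sequencing adapters into open chromatin, so that reads pile up into peaks at accessible DNA. Libraries came from KYSE150 and KYSE510, 2 established human cell lines of squamous carcinoma of the oesophagus. Each was grown in the same medium with serum as a control and with HCP5 silenced, with 3 libraries in each of the 4 groups. HCP5 is a long non-coding RNA, and the title of the series ties it to MYC and to UTP3, a protein of ribosome assembly in the nucleolus. The agent used for silencing and the kind of control are not given in the sources used here. Whether replicates were separate cultures is not stated, so p-values measure only the spread between these libraries, which may be technical.

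Each cytosolic ribosome holds 1 copy of nearly every ribosomal protein, and these genes are among the most heavily transcribed in growing cells. Their mRNAs typically begin with a C followed by an unbroken run of pyrimidines, the 5′ terminal oligopyrimidine tract, through which mTOR signalling controls their translation. Promoters of this class are usually CpG-rich and hold few TATA boxes, and MYC is known to raise the output of the genes. Many of them also carry small nucleolar RNAs (snoRNAs) in their introns.

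The start sites show what the family shares. RefSeq start sites and sequences (GRCh38.p14) matched 58 of the 73 genes. The following 30-base windows run 5′ to 3′ from 10 bases before the start to 19 after it, with the pyrimidine run that begins at the start base in capitals. They are shown for the stalk proteins, for genes with tall peaks and for some of the genes whose peaks differed between the lines. RPL9 and RPS29 also differed but are not shown, with runs of 0 and 1 bases at the listed start. RPS6, RPS14 and RPS19, which are known from signalling and disease, are shown as well.
RPSA, chr3:39406710-39406739 (+ strand): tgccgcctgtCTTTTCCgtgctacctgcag
RPL18, chr19:48619159-48619188 (- strand): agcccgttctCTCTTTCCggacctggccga
RPS9, chr19:54200848-54200877 (+ strand): gcttccgcgcCTCTTTCTCagtgaccgggt
RPL28, chr19:55385922-55385951 (+ strand): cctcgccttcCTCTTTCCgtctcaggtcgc
RPL13A, chr19:49487598-49487627 (+ strand): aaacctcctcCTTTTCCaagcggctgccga
RPS23, chr5:82278335-82278364 (- strand): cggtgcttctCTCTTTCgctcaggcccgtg
RPLP0, chr12:120201092-120201121 (- strand): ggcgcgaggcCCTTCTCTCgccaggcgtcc
RPLP1, chr15:69452808-69452837 (+ strand): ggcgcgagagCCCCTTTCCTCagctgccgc
RPLP2, chr11:809957-809986 (+ strand): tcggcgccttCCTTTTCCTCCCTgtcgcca
RPS6, chr9:19380217-19380246 (- strand): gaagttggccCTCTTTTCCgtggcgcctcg
RPS14, chr5:150449720-150449749 (- strand): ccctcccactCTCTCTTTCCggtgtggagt
RPS19, chr19:41860245-41860274 (+ strand): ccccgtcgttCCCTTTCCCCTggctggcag
The next 4 windows are from genes whose listed start opens no such run and therefore hold no capitals.
RPL17, chr18:49492446-49492475 (- strand): ttccctaagcagcctgaggtgagtgtttct
RPS27A, chr2:55231893-55231922 (+ strand): agtgacacacaagacccagactcttcccta
RPL11, chr1:23691769-23691798 (+ strand): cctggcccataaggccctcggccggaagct
RPL19, chr17:39200273-39200302 (+ strand): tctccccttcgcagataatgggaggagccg
The listed start base was C in 44 of the 58 genes (75.9%), against 11.3% of 15100 promoters. A C or T at the start followed by at least 4 more pyrimidines was present in 40 of the 58 (69.0%) and in 4.89% of all promoters. The run had a median length of 7 bases in the ribosomal protein genes and 0 over all promoters, and the longest, 16 bases, was in RPL7A. In 11 genes the listed start base was neither C nor T: RPL4, RPL9, RPL10A, RPL11, RPL17, RPL19, RPL27, RPL32, RPS26, RPS27A and RPS28. Of the 18 genes without the pattern at the listed start, 10 held a C followed by pyrimidines, 8 or more in all, further on within the 50 bases from the start (55.6%, against 11.5% of all promoters without the pattern). RPL19 had such a run of 12 bases that began 32 bases after its listed start, and RPL27 had 1 of 15 bases that began 11 bases after it.

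Promoters of 270 bases, from 250 before the start to 19 after it, are shown for a gene with a tall peak in every library (RPSA), a gene that differed strongly between the lines (RPS9) and the gene with the lowest peaks (RPL19). Capitals mark matches to the searched motifs on either strand.
RPSA promoter, chr3:39406470-39406739 (+ strand): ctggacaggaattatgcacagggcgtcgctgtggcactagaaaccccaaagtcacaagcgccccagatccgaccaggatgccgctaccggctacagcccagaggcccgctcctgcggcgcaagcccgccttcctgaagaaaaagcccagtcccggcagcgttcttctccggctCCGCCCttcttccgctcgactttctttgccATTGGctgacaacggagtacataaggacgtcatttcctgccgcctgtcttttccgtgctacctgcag
RPS9 promoter, chr19:54200608-54200877 (+ strand): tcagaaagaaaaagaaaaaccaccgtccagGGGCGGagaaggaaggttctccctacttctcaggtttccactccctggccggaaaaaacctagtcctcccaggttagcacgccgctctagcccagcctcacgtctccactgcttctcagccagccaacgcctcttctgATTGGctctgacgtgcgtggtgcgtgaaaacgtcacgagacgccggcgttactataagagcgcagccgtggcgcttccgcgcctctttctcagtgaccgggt
RPL19 promoter, chr17:39200033-39200302 (+ strand): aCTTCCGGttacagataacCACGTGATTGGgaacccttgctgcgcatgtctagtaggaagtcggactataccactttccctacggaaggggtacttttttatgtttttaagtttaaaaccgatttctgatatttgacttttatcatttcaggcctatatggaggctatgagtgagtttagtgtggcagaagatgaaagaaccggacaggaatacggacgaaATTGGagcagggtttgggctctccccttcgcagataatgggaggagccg
In RPSA and RPS9 the capitals are a GGGCGG box of the SP1 and KLF family and a CCAAT box, the motif of NF-Y. In RPL19 they are the ETS-family motif CCGGAAG, the E-box CACGTG and CCAAT at 2 places, 1 of them directly beside the E-box. Searched over 300 bases on both strands, the ETS motif CCGGAAG was present in 20 of 58 promoters (34.5%, against 14.3% of all promoters). The YY1 core ATGGCG was present in 19 (32.8% against 14.3%). TCTCGCGA, the core of a palindromic promoter element, was present in 11 (18.97% against 1.71%), among them RPS6, RPS19, RPL4 and RPL17. The letters of this core overlap their own reverse complement, but the core is not itself a palindrome. GGGCGG was found in 31 (53.4% against 58.7%) and CCAAT in 21 (36.2% against 36.0%). The E-box CACGTG, the binding motif of MYC and its relatives, was found in 3 promoters, those of RPL13A, RPL19 and RPS28 (5.17% against 8.71%). TATAAA was found in 5 (8.62% against 9.83%), TATATAA in 3 (5.17% against 2.19%), the NRF1-type motif GCATGCGC in 3 (5.17% against 4.19%) and the AP-1 motif TGANTCA in 2 (3.45% against 5.64%). The median GC content was 59.0% against 62.7% over all promoters, and the ratio of observed to expected CpG was 0.914 against 0.765.

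The files are peak lists. The 6 KYSE150 lists hold 547125 to 630780 peaks and the 6 KYSE510 lists 115868 to 135948. The background implied by the authors' fold enrichment was 0.0826 to 0.108 reads in KYSE150 and 0.180 to 0.217 in KYSE510. The read depth of the libraries is unknown. For each gene, the height (the authors' pileup, the number of overlapping fragments at the summit) of the tallest peak within 1 kb of either end of the gene was taken. Because heights are not comparable between libraries, each was also expressed as a percentile among all 19122 genes of its library, with genes without a peak at height 0.

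Ribosomal protein genes carried peaks more often than protein-coding genes at large, and their median height was greater when genes without a peak counted as 0. Among genes with a peak in every library they stood near the middle, and none was in the top 1% of all genes. Between 66 and 72 of the 73 had a peak in each KYSE150 library and between 69 and 72 in each KYSE510 library. All protein-coding genes had one in 78.8% to 80.2% and in 64.7% to 67.1% of cases. A peak in all 12 libraries was present at 59 ribosomal protein genes (80.8%), against 46.7% of all genes. In KYSE150 the median height was 8 to 12, against 3 to 4 for all genes, and in KYSE510 it was 11 to 16, against 6 to 7. Among all genes, the family had a median height percentile of 71.3 to 76.4 in the KYSE150 libraries and 68.9 to 75.1 in the KYSE510 libraries. The 77 nuclear genes for mitochondrial ribosomal proteins lay between, at 58.9 to 65.4 and 62.5 to 67.0. In the top 10% of genes by height there were 6 to 9 ribosomal protein genes in a KYSE150 library and 9 to 13 in a KYSE510 library, and 0 were in the top 1% in any library. Among only those genes with a peak in every library, the family's median percentile was 50.8 to 52.6 by group.

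**Figure D1:**
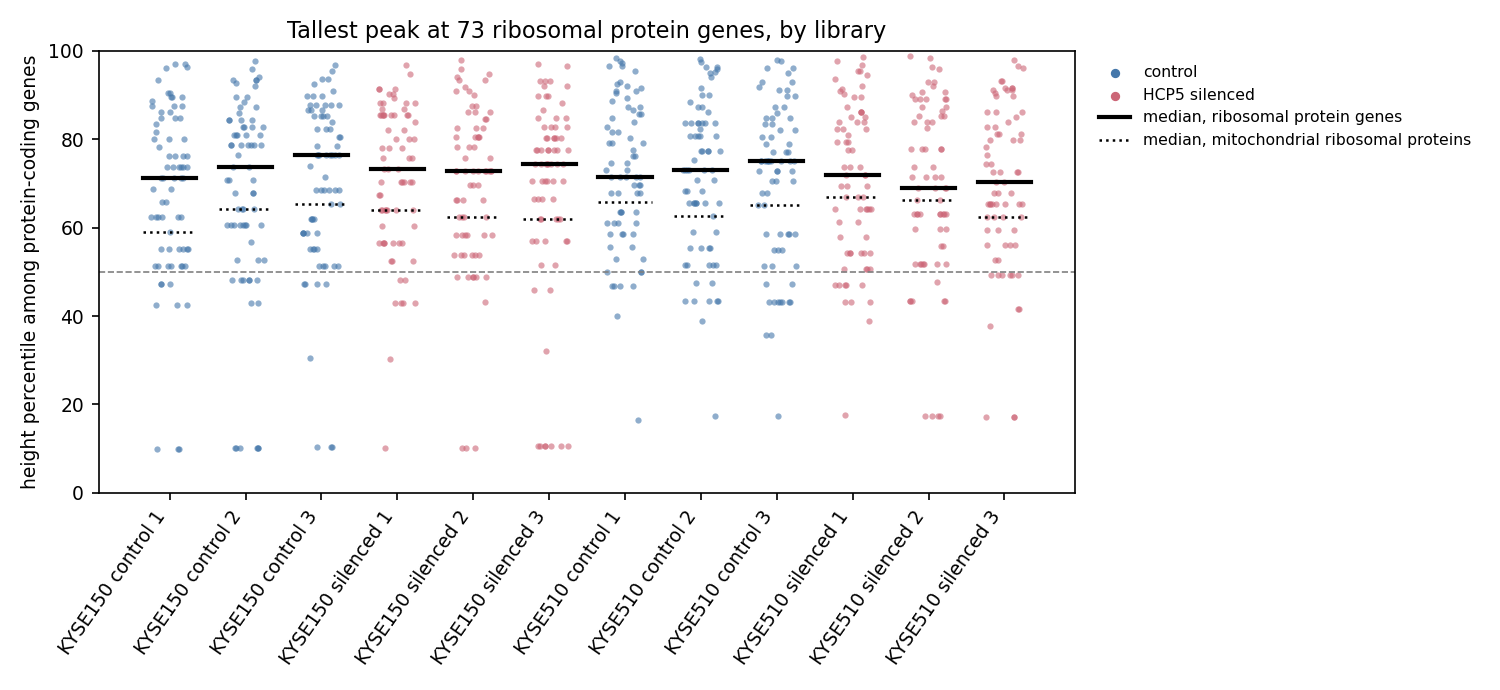
Height percentile of the tallest peak at each of the 73 ribosomal protein genes (points, 1 column per library, horizontal jitter only) among 19122 protein-coding genes, in control and HCP5-silenced libraries. Solid bars are the family's median, dotted bars the median of 77 mitochondrial ribosomal protein genes, and the dashed line is at 50. The solid bars lie between 68.9 and 76.4 in all 12 libraries, and the points near the bottom are genes without a peak.

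Large and small subunits were set side by side without a test. The median percentile in KYSE150 controls was 72.9 ± 3.9 (SD, n = 3) for the large subunit and 73.3 ± 2.3 (SD, n = 3) for the small. In KYSE510 controls they were 72.5 ± 0.90 and 74.4 ± 1.2 (SD, n = 3). With HCP5 silenced they were 73.4 ± 0.73 and 71.9 ± 1.3 in KYSE150, and 67.9 ± 2.3 and 72.8 ± 2.8 in KYSE510 (SD, n = 3). The ranges of the subunits over the 3 libraries did not overlap in silenced KYSE510, where the small subunit was higher. Individual genes ranged widely within both subunits. Averaged over the 12 libraries, 7 genes had a percentile of at least 90, 54 lay between 50 and 90, and 12 lay below 50. The spread between replicates of a group, as the median SD over genes, was 4.76 to 5.58 percentile points. The order of the genes was shared by the lines as a description: over the 73 genes, the mean control percentiles of the lines had Pearson r = 0.806 and Spearman rho = 0.787, against 0.867 and 0.848 over all genes, which share the reference windows.

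RPSA, RPS27A, RPL18 and RPL37 were among the 5 genes with the highest mean percentiles. RPSA, a small-subunit protein also known as the laminin receptor precursor, had heights of 36, 24 and 26 in KYSE150 controls and 21, 24 and 15 with HCP5 silenced. Its heights in KYSE510 were 60, 39 and 39 in controls and 38, 39 and 41 with silencing. Its percentile stayed above 90 as a mean of every group, from 91.9 ± 2.5 to 96.7 ± 0.82 (SD, n = 3). RPS27A, which is made as a fusion of ubiquitin with a small-subunit protein, had heights of 36, 35 and 30 in KYSE150 controls and 17, 26 and 18 with silencing. In KYSE510 its heights were 53, 44 and 30 in controls and 35, 37 and 30 with silencing. All 3 silenced KYSE150 libraries were thus below the 3 controls on the height scale, which does not correct for differences between libraries. How many of all genes separate in this way was not counted. The tallest RPS27A peak was also within 1 kb of an end of CLHC1, so these heights cannot be assigned to RPS27A alone. RPL37 had heights of 33, 25 and 21 in KYSE150 controls, 31, 22 and 15 with silencing, 47, 37 and 39 in KYSE510 controls and 38, 30 and 30 with silencing. The groups of RPL37 overlapped within both lines.

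The stalk proteins, which recruit the GTPase translation factors, differed among themselves. RPLP0, which anchors the stalk, had heights of 17, 22 and 14 in KYSE150 controls, 19, 22 and 12 with silencing, 39, 32 and 25 in KYSE510 controls and 27, 24 and 28 with silencing. RPLP1 was lower, at 5, 9 and 7, then 13, 6 and 6, in KYSE150 and at 10, 10 and 10, then 12, 9 and 11, in KYSE510 (control, then silenced). RPLP2 was at 11, 12 and 12, then 11, 9 and 8, in KYSE150 and at 15, 9 and 14, then 10, 9 and 9, in KYSE510. Their mean percentiles over the 12 libraries were 89.3, 65.3 and 70.5. RPL5 and RPL11 form the 5S particle with 5S RNA and can bind MDM2. RPL5 had heights of 10, 13 and 19, then 9, 12 and 9, in KYSE150 and of 22, 13 and 11, then 11, 12 and 10, in KYSE510. RPL11 was listed at 2, 3 and no peak in KYSE150 controls and at 5, 9 and 9 with silencing. In KYSE510, RPL11 was at 12, 6 and 8 in controls and at 7, 7 and 8 with silencing. The KYSE150 groups of RPL11 did not overlap on the uncorrected height scale, without a count of all genes for which this holds. The gene lacked a peak in 1 control library and so was not among the genes tested there.

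RPS6, the substrate of S6 kinase, had heights of 4 to 7 over the 6 KYSE150 libraries and 5 to 11 in KYSE510. RPS14 and RPS19, whose loss of 1 copy is known from bone marrow failure syndromes, were at 6 to 11 and 8 to 18 in KYSE150 and at 10 to 14 and 13 to 27 in KYSE510. RPS3, which also has a role in DNA repair, was at 8 to 17 in KYSE150 and 5 to 15 in KYSE510. RPL3, a core protein of the peptidyl transferase centre, was at 0 to 5 in KYSE150 and at 6 to 7 in KYSE510. RPL41, the smallest of the family, was at 17 to 21 and at 25 to 34, although this peak lies across its 3′ end and not at its start.

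The lowest values belonged to RPL19, RPL36, RPL38, RPS16 and RPL32, with mean percentiles of 19.3, 37.2, 40.6, 43.3 and 43.6. RPL19, a large-subunit protein at an intersubunit bridge, had a peak in only 3 of 12 libraries, with heights of 1, 1 and 4. The nearest peak to its listed start was 2408 to 6733 bp away in the KYSE150 libraries. In KYSE510 it was 148 bp away in control 3 and 2486 to 8004 bp away in the other libraries. RPL36 had a peak in 7 libraries and RPL38 in 8. RPS16 had a peak in 3 of 6 KYSE150 libraries, with heights of 2, 3 and 4, and was at 6 to 11 in KYSE510. RPL32 was at 0 to 5 in KYSE150 and 3 to 6 in KYSE510. In all, 14 genes lacked a peak in 1 or more libraries: 13 in KYSE150, 5 in KYSE510 and 4 in both. Besides these 5 and RPL11 and RPL3, they included RPL7A, RPL14, RPL23, RPS15, RPS27 and RPS28. A gene without a peak fell short of the authors' threshold, the largest listed p-value being 0.00987 in every library, and is not shown to be closed.

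Where the tallest peak lay was measured from the listed start. In 41 of the 58 genes with a listed start, the tallest peak was within 1 kb of it in every library that had a peak, and in 38 of these the median midpoint was upstream. The median over these 41 genes was −82.5 bp. The peak covered the start base in every library that had a peak in 16 genes. The tallest peak was away from the start in every library in 5 genes. For RPL4, RPL17 and RPL41 it lay at the 3′ end, where a neighbouring gene, SNAPC5, C18orf32 or ZC3H10, has an end within 1 kb of the peak. For RPL27A it also lay at the 3′ end, and RPL6 has a listed start inside the gene, so that its distance says little. The remaining 12 genes had the tallest peak near the start in some libraries only. Over all 73 genes, 22 had a tallest peak that was also within 1 kb of the end of another protein-coding gene, so those heights cannot be assigned to the ribosomal protein gene alone.

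At the start itself, RPL17, RPL41 and RPL4 were low and RPL27A was not. Within 1 kb of its start, RPL17 had heights of 6, 4 and 6, then 5, 8 and 6, in KYSE150 (control, then silenced) and of 7, 4 and 3, then 0, 0 and 4, in KYSE510. RPL41 had a peak near its start in 1 of 6 KYSE150 libraries and 4 of 6 KYSE510 libraries, with heights of 5 and of 6 to 9. RPL4 was at 3 to 7 and 5 to 11 near its start. RPL27A was at 3 to 16 in KYSE150 and 6 to 21 in KYSE510 near its start. Counting only peaks near the start, the family's median percentile was 61.9 to 71.0 over the 12 libraries.

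**Figure D2:**
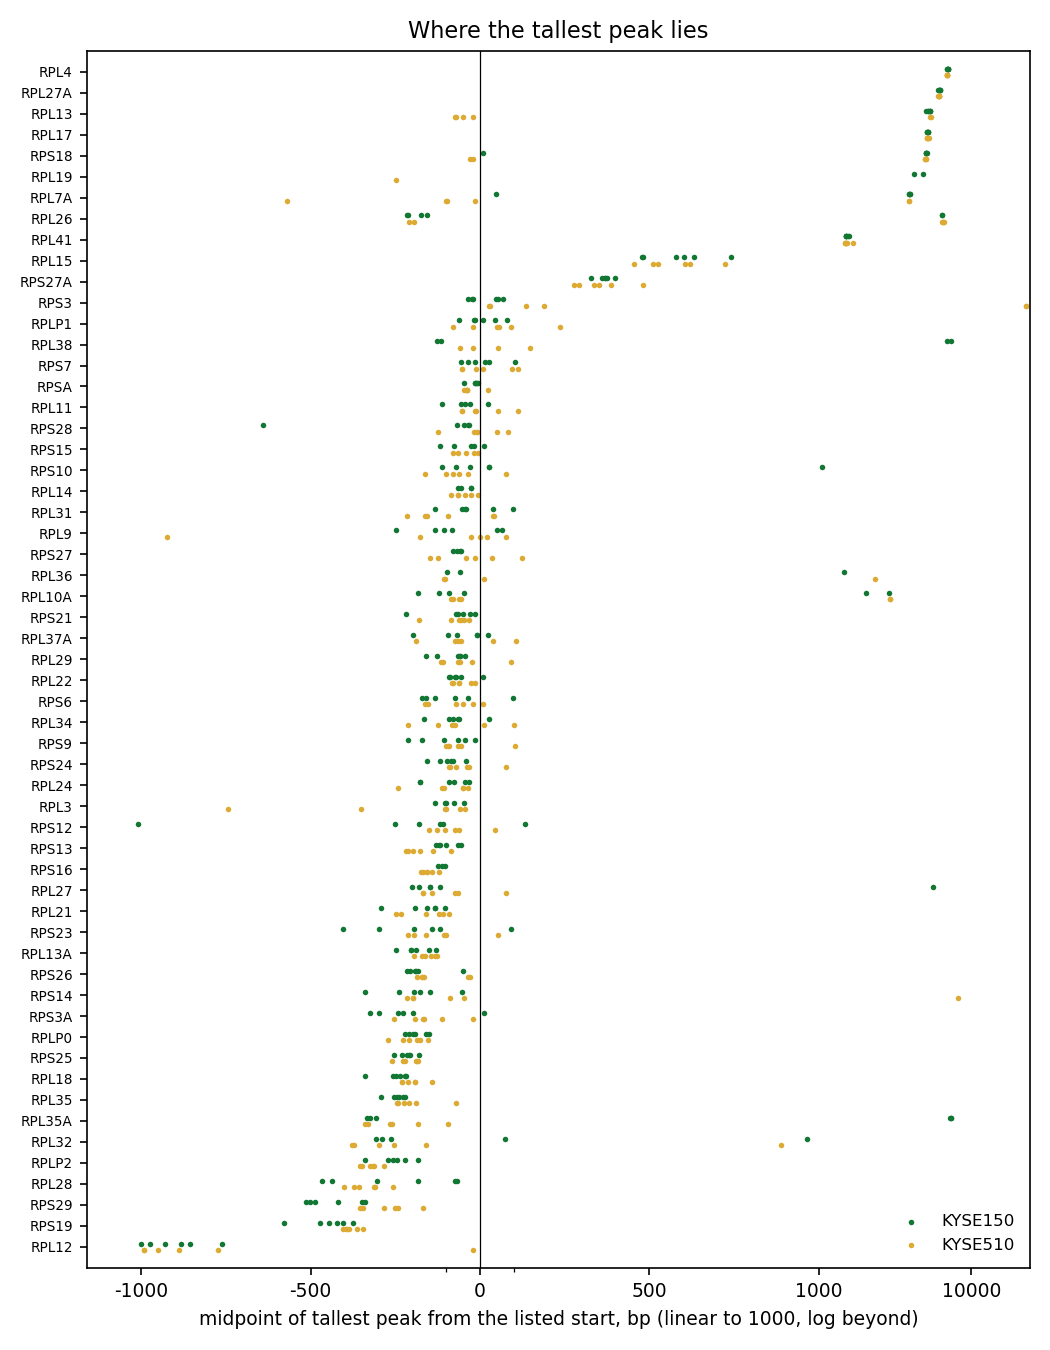
Distance in bp from the listed start to the midpoint of the tallest peak, 1 row per gene with a listed start (RPL6, whose listed start lies inside the gene, is left out) and 1 point per library; negative values are upstream. The axis is linear to 1000 bp and logarithmic beyond. Most rows gather around the start, and RPL4, RPL17, RPL27A and RPL41 have all 12 points more than 1000 bp downstream.

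Other features were set beside the mean percentile as a description only. That percentile belongs to the tallest peak at either end of the gene, which need not lie at the promoter searched. For RPL4, RPL17 and RPL27A, which all hold TCTCGCGA, this peak was away from the start in every library. Genes with the pyrimidine pattern at the start had a median of 72.1 (n = 40) and those without it 66.5 (n = 18). Genes with the ATGGCG motif had a median of 77.4 (n = 19) and those without it 67.5 (n = 39). For CCAAT the medians were 77.2 (n = 21) with and 66.8 (n = 37) without, for TCTCGCGA 74.0 (n = 11) and 69.6 (n = 47), and for GGGCGG 71.0 (n = 31) and 68.1 (n = 27). For CCGGAAG the order was the other way, at 68.6 (n = 20) with and 72.5 (n = 38) without. At least 1 snoRNA gene lay inside 27 of the 73 genes (37.0%, against 2.64% of all protein-coding genes), with 58 snoRNA genes in all. The median percentile was 75.1 in these hosts and 68.6 in the other 46. In each case the ranges of the groups overlapped. Taller peaks were also longer: over the 73 genes, mean length and mean percentile had Pearson r = 0.750 and Spearman rho = 0.729, both from the same peaks.

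Silencing HCP5 was compared with the control within each line. Per gene, limma was run on the normal score of the height rank, among genes with a peak in every library of the fit, and p-values were Benjamini-Hochberg adjusted over all genes tested. A score of 1 is about 1 SD of the genes' normal scores, which keep the order of the heights but not their spacing. In bulk libraries, a lower peak in every cell and a peak in fewer cells cannot be told apart.

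In KYSE150, 60 of the 73 ribosomal protein genes were tested and none passed (0 of 10474 genes over all, 0% called). The smallest adjusted p in limma was 0.965 among the ribosomal protein genes and 0.796 over all genes. The 60 differences were spread around 0, with 31 positive, 29 negative, a median of 0.00 and a range from −0.52 to 0.59. The median over all genes was 0.01. At an unadjusted p under 0.05, 2 of the 60 were higher and 1 lower, against 2.51% of all genes higher and 2.42% lower (4.93% in either direction). RPL29 had the largest positive difference, 0.59 ± 0.19 (SE; limma adjusted p = 0.965), with heights of 5, 6 and 5 in controls and 8, 8 and 8 with silencing. Its peaks were 223, 220 and 200 bp long in controls and 340, 378 and 364 bp with silencing. RPL31 had heights of 5, 6 and 8 and of 12, 10 and 5, a difference of 0.50 ± 0.24 (SE), and lengths of 335, 307 and 358 bp and of 534, 612 and 512 bp. Both genes were longer in all 3 silenced libraries, and neither passed the limma test on length, with adjusted p of 0.463 and 0.522. RPL27, the next, had heights of 8, 8 and 9 in controls and 14, 9 and 10 with silencing (0.49 ± 0.20, SE). The largest negative differences were those of RPL22, which binds the small viral RNAs of Epstein-Barr virus (−0.52 ± 0.28, SE), RPS21 (−0.49 ± 0.20) and RPS27A (−0.48 ± 0.23). RPL22 had heights of 10, 15 and 7 in controls and 5, 8 and 4 with silencing, which overlap. RPS21 had heights of 11, 11 and 12 in controls and 7, 5 and 7 with silencing. These do not overlap, but the share of all genes whose groups separate in this way was not counted. The height scale does not correct for differences between libraries. On it the family's median was 10.7 in KYSE150 controls and 9.0 with silencing, as means of 3 libraries. Over all protein-coding genes it was 3.67 and 3.

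In KYSE510, 68 were tested and none passed (0 of 10267 genes, 0% called). Of the differences, 35 were positive and 33 negative, and the median was 0.01 against 0.00 over all genes. They ranged from −0.90 to 0.44. At an unadjusted p under 0.05, 0 of the 68 were higher and 5 were lower, against 3.23% of all genes higher and 2.87% lower (6.11% in either direction). Among the 5 were RPL30, RPS16 and RPS25, the last named after its value was seen. RPL30 had heights of 20, 13 and 14 in controls and 12, 6 and 11 with silencing (−0.61 ± 0.26, SE). All 3 silenced libraries of RPL30 were below the 3 controls on the uncorrected height scale, but genes separated this way were not counted. On that scale the family's median was 14.3 in KYSE510 controls and 12.3 with silencing, as means of 3 libraries. The median over all protein-coding genes was 6.33 and 6. The largest positive differences were RPS15A (0.44 ± 0.22, SE), RPL23A (0.38 ± 0.19) and RPL29 (0.38 ± 0.63). RPS15A had heights of 21, 19 and 22 in controls and 33, 21 and 29 with silencing. RPL29 had 17, 10 and 2, then 9, 6 and 10, and without KYSE510 control 3 its difference was −0.51.

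**Figure D3:**
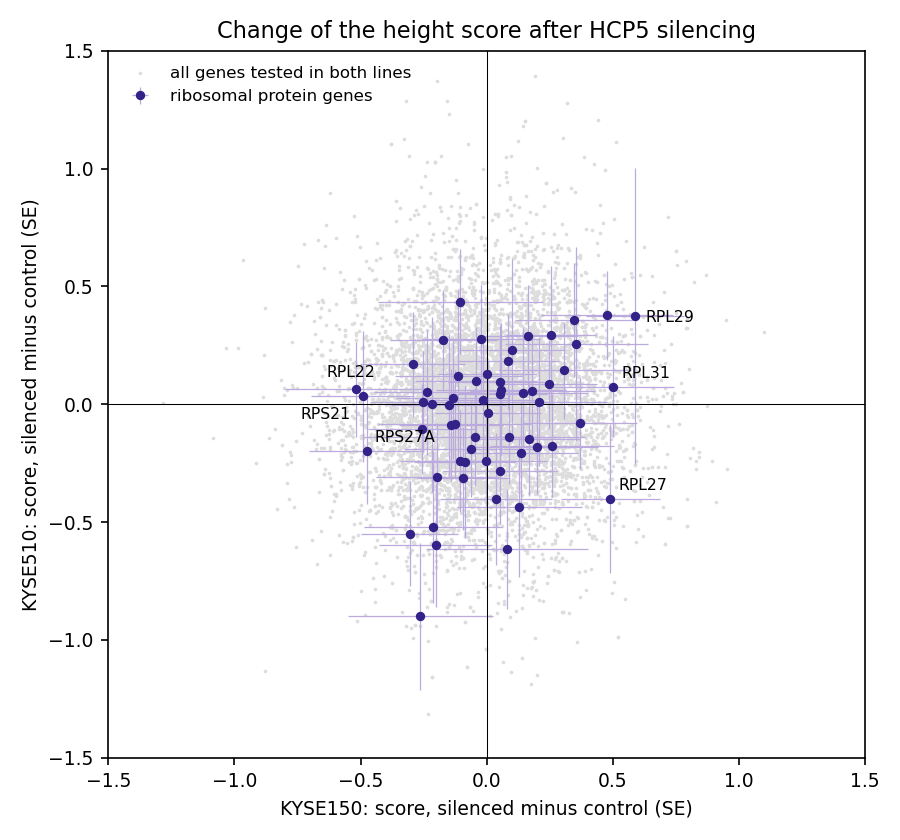
Score difference, silenced minus control, in KYSE150 (x axis) and KYSE510 (y axis), for all genes tested in both lines (grey) and the ribosomal protein genes (dark, bars are SE from limma, 3 against 3 libraries). Names mark the 3 largest positive and 3 largest negative differences in KYSE150. The dark points lie around 0 within the grey cloud, and none passed the adjusted threshold.

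The difference between the lines in the effect of silencing was tested with a treatment-by-line term over the 12 libraries. Of the 59 ribosomal protein genes in that fit, none passed (0 of 8938 genes, 0% called). The largest was RPL27 at −0.96 ± 0.40 (SE, KYSE510 effect minus KYSE150 effect; limma adjusted p = 0.914), the only 1 of the 59 with an unadjusted p under 0.05 (0.029). RPL27 heights in KYSE510 were 12, 19 and 13 in controls and 7, 10 and 15 with silencing. Of the named stalk and 5S proteins, RPLP0 differed by 0.20 ± 0.24 in KYSE150 and −0.18 ± 0.20 in KYSE510, and RPL5 by −0.20 ± 0.24 and −0.31 ± 0.23 (SE). RPSA differed by −0.26 ± 0.21 and −0.11 ± 0.19. Among the 3 genes with a CACGTG E-box, RPL13A differed by −0.06 ± 0.26 in KYSE150 and by −0.19 ± 0.20 in KYSE510, and RPL19 and RPS28 lacked a peak too often to be tested in KYSE150. These SEs are as large as most of the differences, so changes of that size were not detectable with 3 libraries a group.

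Between the lines, 9 ribosomal protein genes differed in the control libraries. Of 63 tested, 9 passed (14.3%), against 19.6% called among 9842 genes and the family held no excess of calls. In KYSE150, 3 were higher (4.76% against 8.7% of all genes): RPL17, RPL9 and RPS23. In KYSE150, 6 were lower (9.52% against 10.9%), among them RPS9, RPS29, RPL13A, RPL28 and RPL18. Sequencing and peak calling may also have differed between the sets, whose lists differ several-fold in length, and these cannot be told apart from the line.

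RPS9, a small-subunit protein important for decoding accuracy, differed most. Its heights were 5, 6 and 11 in KYSE150 controls and 52, 35 and 35 in KYSE510 controls, with silenced libraries at 7, 9 and 7 and at 43, 30 and 29. Its percentile was 63.2 ± 9.7 in KYSE150 and 95.6 ± 0.80 in KYSE510 controls (SD, n = 3), a score difference of −1.88 ± 0.26 (SE; limma adjusted p = 0.000629). RPS29, a zinc-binding protein of the small subunit, had heights of 4, 6 and 3 against 23, 19 and 15 (−1.39 ± 0.24, SE; limma adjusted p = 0.00277). In both genes every KYSE150 library was below every KYSE510 library, silenced ones included, and both passed under all 16 settings tried. RPL13A, which also takes part in a translation silencing complex in myeloid cells, had heights of 8, 12 and 9 against 29, 22 and 30 (limma adjusted p = 0.0167). RPL28 had 5, 7 and 7 against 27, 14 and 14 (limma adjusted p = 0.0230). RPL18 had 21, 23 and 21 against 57, 48 and 49 (limma adjusted p = 0.0190). RPL13A passed in 12, RPL28 in 11 and RPL18 in 11 of the 16 settings. The tallest peaks of RPS29, RPL13A and RPL18 were also within 1 kb of an end of LRR1, FLT3LG and SPHK2, in that order. These heights therefore cannot be assigned to the ribosomal protein gene alone.

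RPL17, of the large-subunit surface near the exit tunnel, was the clearest gene in the other direction. Its heights were 32, 29 and 34 in KYSE150 controls and 18, 12 and 15 in KYSE510 controls, a score difference of 1.41 ± 0.21 (SE; limma adjusted p = 0.00104). This peak is the one at the C18orf32 end of the gene. With peaks near the start of RPL17 only, the difference was 0.78 (limma adjusted p = 0.0607). RPL9, another large-subunit protein, had heights of 9, 13 and 17 against 10, 8 and 8 (0.90 ± 0.24, SE; limma adjusted p = 0.0231). RPS23, which carries a hydroxylated proline at the decoding centre, had 10, 7 and 10 against 7, 7 and 6 (0.80 ± 0.22, SE; limma adjusted p = 0.0238). On the height scale the lines overlap for RPL9 and RPS23, and the rank within the library separates them. RPL9 passed in 9 and RPS23 in 11 of 16 settings. The RPL9 peak was also within 1 kb of an end of LIAS, so its height cannot be assigned to RPL9 alone. Just outside the threshold were RPS18, RPS3, RPL22 and RPL4, with limma adjusted p of 0.0559, 0.0589, 0.0652 and 0.0791.

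Most of the tall and well-studied members did not pass. RPSA differed by −0.25 ± 0.22 (SE; limma adjusted p = 0.457), RPS27A by 0.12 ± 0.23, RPLP1 by −0.06 ± 0.25, RPS14 by 0.04 ± 0.24 and RPS19 by 0.04 ± 0.25. RPLP0 differed by −0.43 ± 0.24, RPLP2 by 0.31 ± 0.23 and RPL5 by 0.29 ± 0.26. The median over the 63 genes was −0.10, against 0.03 over all genes. Of 66 mitochondrial ribosomal protein genes tested, 8 passed (12.1%), against the 19.6% of all genes.

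**Figure D4:**
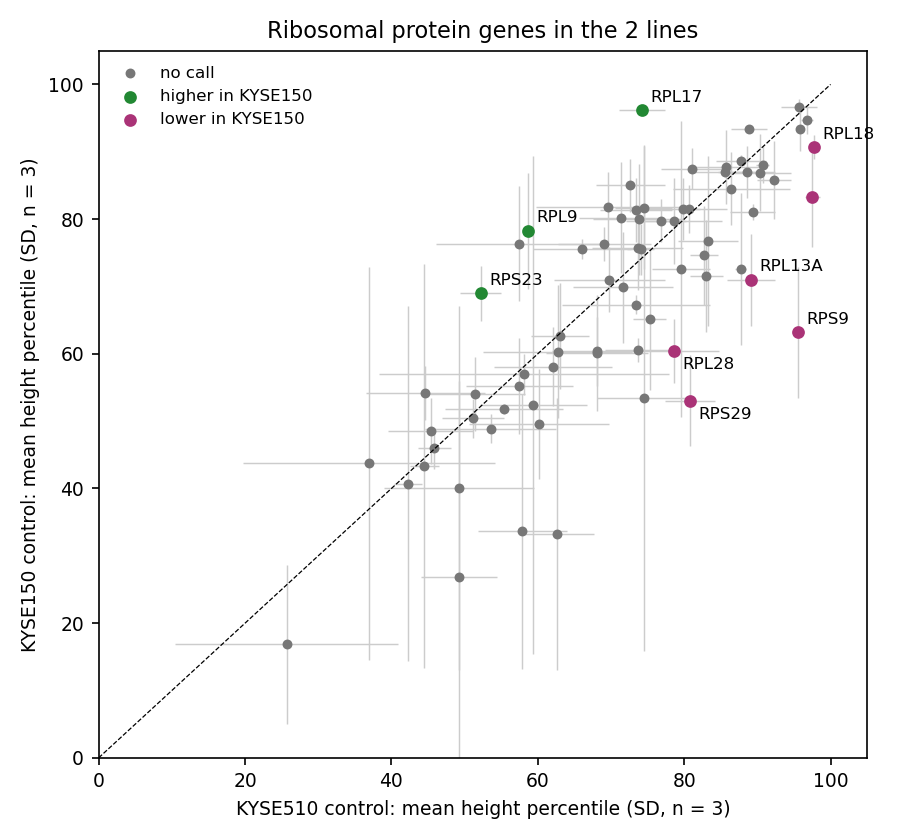
Mean height percentile of each ribosomal protein gene in KYSE510 controls (x axis) and KYSE150 controls (y axis), with SD over 3 libraries; the dashed line marks equal values. The 3 genes called higher in KYSE150 lie above it and the 6 called lower lie below it, RPS9 at 95.6 and 63.2 being the farthest.

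**Figure D5:**
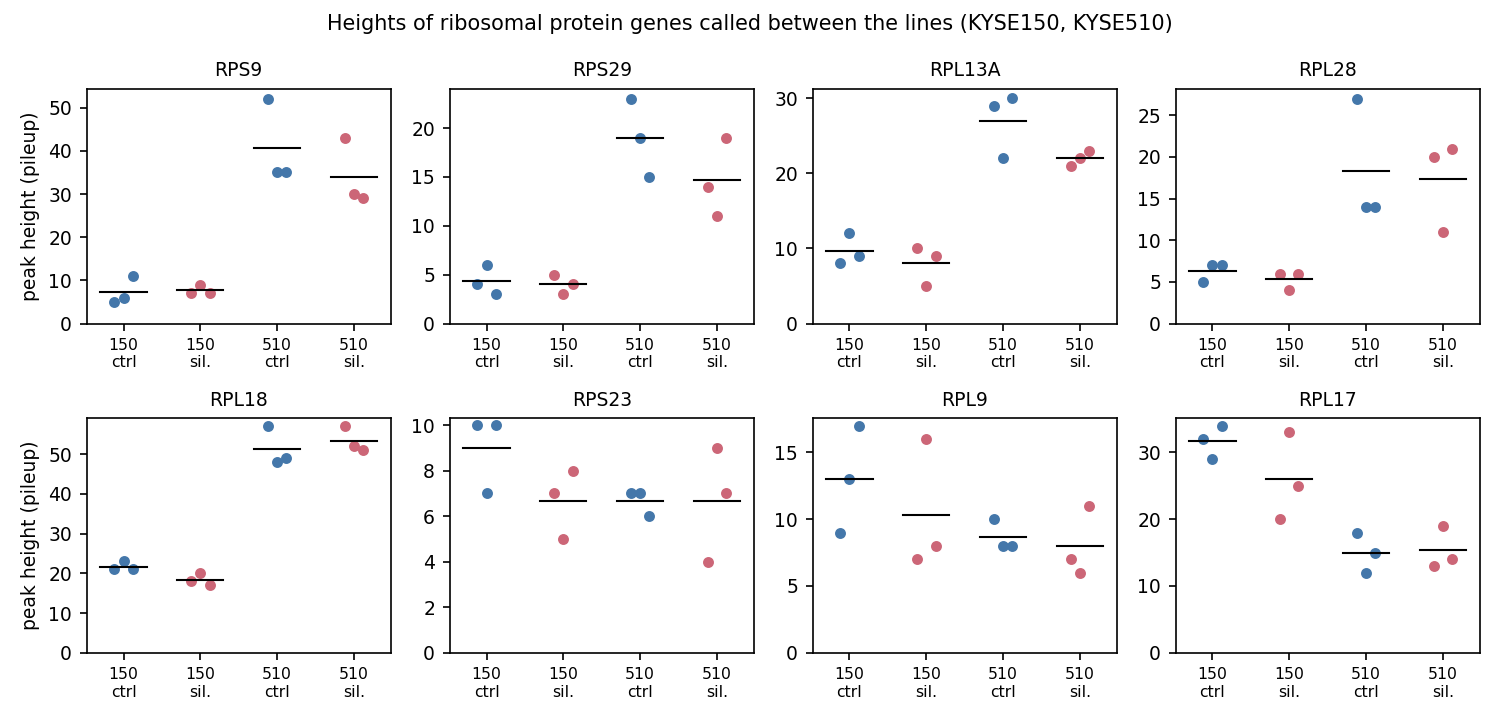
Height of the tallest peak in each library (points) for 8 of the genes that passed between the control libraries, those with a listed start, by line and treatment (ctrl, control; sil., HCP5 silenced), with the group mean as a bar; each panel has its own axis from 0. RPS9, RPS29, RPL13A, RPL28 and RPL18 are taller in every KYSE510 library, and RPL17 is taller in every KYSE150 library.

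Several genes that were lower in KYSE150 lie close together. RPL18, RPL13A, RPS9 and RPL28 are on the long arm of chromosome 19, in a stretch from RPL18 to RPL28 (GRCh38 chr19:48615331-55403342) that was chosen after the values were seen. Over all genes tested in the stretch, 67 of 101 were lower in KYSE150 by limma (66.3%), with a median difference of −0.99. In the same test 0 were higher, and 0 were higher at an unadjusted p under 0.05. Outside chromosome 19, 10.2% of genes tested were lower. The difference at these 4 ribosomal protein genes was thus shared by most genes around them.

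The local background of the same peaks was also higher in KYSE510 at the median of these 4 genes. It was computed from the height and the authors' fold enrichment of the same peak and divided by the library's own background. It is therefore not independent of the height. Genes on other chromosomes that differed between the lines, such as RPS29 and RPL17, were not set apart. For these 4 genes its median was 4.81 in KYSE150 and 10.4 in KYSE510 controls, whereas for 61 members on other chromosomes it was 6.03 and 4.43. For RPL18 it was 7.86 and 18.6. When genes were ranked by fold enrichment, which divides by this background, 7.65% of all genes and 3 of the 63 passed: RPS9 (−1.62; limma adjusted p = 0.00583), RPS29 (−1.07; 0.0416) and RPL17 (1.19; 0.0184). RPL18 then differed by 0.47 in the other direction (limma adjusted p = 0.323). Its fold enrichment was 12.5, 13.3 and 11.96 in KYSE150 controls and 11.1, 10.9 and 11.5 in KYSE510 controls. The part of the local background in the height differences was not tested further.

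Leaving out single control libraries also changed which genes passed. The count of 9 became 5 without KYSE150 control 1, without KYSE150 control 3 or without KYSE510 control 3. RPS9, RPS29 and RPL17 passed with any 1 control library left out.

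Peak length gave no call in the family. The median length of the tallest peak was 411 to 511 bp in KYSE150 and 502 to 573 bp in KYSE510, against 326 to 373 bp and 453 to 496 bp over all genes with a peak. The longest in KYSE150 were RPL4, RPL13 and RPL7, with means of 799, 795 and 788 bp over 6 libraries. In KYSE510 they were RPL7, RPL28 and RPL37, with 1056, 1002 and 806 bp. The shortest listed length is 200 bp, and RPL19 was at that length in all 3 libraries in which it had a peak. RPL14 and RPL10A, with 218 and 219 bp, were next in KYSE150, and RPL36 and RPL7A, with 201 and 246 bp, in KYSE510. On log2 length centred on each library's median, silencing gave 0 calls among 60 and 68 ribosomal protein genes (0% of all genes called in both lines). Between the lines, 0 of 63 passed, against 0.254% of all genes. RPL28 came nearest, at 200, 212 and 343 bp in KYSE150 controls and 942, 1082 and 1076 bp in KYSE510 controls (limma adjusted p = 0.0589).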

How the data were processed

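ATAC-seq peak lists of 12 libraries were used, 3 each of control and HCP5-silenced KYSE150 and KYSE510 cells, grouped by the labels. The submitters' processing notes name GRCh38, Trimmomatic 0.36, Bowtie2 2.2.6, Picard 2.8.2, MACS2 2.1.1 and bedtools 2.25.0, with no settings. Per the file headers, each row gives the peak's length, the authors' pileup signal (its height), fold enrichment, p-value and FDR. The deposited signal carries no scaling between libraries that the sources used here state. The authors' fold enrichment is a ratio that equals (height + 1) over (background + 1), and no deposited p-value exceeds 0.00987. Peaks were called per library, and the depth in reads is unknown, so no counting interval is given.

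For each of 19122 genes, the tallest peak within 1 kb of either end was taken. Heights were ranked within the library among genes with a peak in every library of the fit, turned into normal scores and tested with limma 3.58.1 (R 4.3.3; lmFit, eBayes, Benjamini-Hochberg adjusted p under 0.05). Lengths were tested as log2 length centred on the library median. The fitting code was tested on simulated data. The members and lists were chosen with earlier results of these data known. Named genes were those known for a role, the 5 highest and 5 lowest, those lacking a peak in a library, those that passed, the 3 largest differences each way per silencing comparison, and the 3 longest and shortest peaks per line. Same-numbered replicates deviated together only weakly, with r from 0.0177 to 0.0438 over genes. Differently numbered ones had r from −0.0411 to 0.0149. The numbers were not taken as pairs. Alternatives were other scalings, windows, peak and gene filters, a replicate block and leaving out each library. RefSeq promoters matched 58 genes. Some genes that the naming rule selects are not reported here by name, but they stay in the counts and medians.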

Additional observations from a re-analysis of the deposited data

How the results depend on the processing

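Of 218 alternative values for counts and group medians, 183 stayed near the reported value and 35 moved. The silencing counts were 0 in the main fit, and an alternative of 0 counted as near. For single genes 299 of 328 kept their direction and their side of the threshold, 27 kept their direction but lost the call and 2 reversed. The 27 were all at genes called between the lines. The genes listed for silencing had no call to lose, so these shares do not measure how stable the calls were. The reversals were RPL18 between the lines, at 0.47 when ranked by fold enrichment, and RPL29 in KYSE510, which passed in no case, at −0.51 without KYSE510 control 3 (−0.51 to 0.90 over the libraries left out in turn). That ranking gave 753 genes called between the lines and 3 ribosomal protein genes. With no filter on genes, which puts genes without a peak at height 0, 93 genes were called in KYSE150 (38 higher, 55 lower), 43 in KYSE510 (15 higher, 28 lower), 4341 between the lines and 79 for the difference in effect. With all 12 libraries in 1 fit, 3195 genes and 22 ribosomal protein genes (10 higher, 12 lower) were called between the lines. The 2 kb window gave 1 gene for the difference in effect. With the replicate block, 1974 genes and 10 ribosomal protein genes (4 higher, 6 lower) were called between the lines by height and 0 by length, against 25 without it, and no silencing comparison gained a call. For length between the lines, summed length gave 3, peaks with an FDR of at most 0.05 gave 2, and rank of length gave 1 ribosomal protein gene, lower in KYSE150. Leaving out 1 library gave 0 to 3 genes in KYSE510 (3 without silenced replicate 1), 1261 to 1445 genes (1261 without KYSE510 control 1) and 5 to 10 ribosomal protein genes between the lines, and 0 to 0 genes for length. The family's median percentile, as means of 73.8 in KYSE150 controls, 73.4 in KYSE150 silenced, 73.2 in KYSE510 controls and 70.4 in KYSE510 silenced, became 71.1 and 74.7 for the KYSE150 groups by fold enrichment and 71.8 for the silenced KYSE150 group at 2 kb. At the start only it was 63.5, 68.5, 68.0 and 63.8, and among genes with a peak in every library 50.8, 52.2, 52.4 and 52.6. The cause was not tested. Low heights limit what can be ranked at RPL19, with 1 to 4 fragments where it had a peak, or at RPL32, with at most 6.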

Other observations

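Genes outside the 73 that belong with the ribosome were also read. The 4 ribosomal protein genes of the X chromosome had peaks in all 12 libraries. RPS4X had heights of 19, 17 and 26 in KYSE150 controls and 9, 19 and 9 with HCP5 silenced, and of 7 to 13 over the KYSE510 libraries. RPL36A was at 8 to 18 in KYSE150 and 6 to 22 in KYSE510, RPL39 at 6 to 10 and 11 to 16, and RPL10 at 5 to 12 and 7 to 14. RPL36AL, a copy of RPL36A on another chromosome, was at 11 to 22 in KYSE150 and 44 to 58 in KYSE510. RPL39L, a testis-type copy of RPL39, was at 0 to 1 in KYSE150 and 7 to 17 in KYSE510.

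Translation factors and other genes known for the same mRNA tract had a higher median height percentile than the ribosomal protein genes in every library, a difference that was not tested. The 15 genes had a median percentile of 80.5 to 92.1 in the KYSE150 libraries and 81.6 to 86.3 in the KYSE510 libraries. EIF3H, a subunit of an initiation factor, had heights of 109, 81 and 86 in KYSE510 controls and 94, 76 and 61 with silencing, against 12 to 24 in KYSE150. EEF1G, of the elongation factor complex, had 19, 23 and 24 in KYSE150 controls and 7, 8 and 5 with silencing. The groups did not overlap in height, which is not corrected for differences between libraries. The share of all genes separated in this way was not counted. The score difference of −1.29 did not pass the limma test over all genes, in which 0% were called. EEF2, the translocase, had a peak in 1 of 6 KYSE150 libraries and 3 of 6 KYSE510 libraries, none above height 3. The KYSE150 peak was in a control, and the 3 KYSE510 peaks were in the silenced libraries. Between the lines, 5 of 14 tested genes of this list passed (35.7%), against 19.6% of all genes.

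Ribosomal protein genes have left many processed copies in the genome. Of 1892 pseudogene loci named after the members, a list made after the data were seen, 42.2% to 47.4% had a peak within the window in KYSE150 and 8.62% to 11.5% in KYSE510. The other 13629 pseudogenes had one in 44.6% to 50.5% and 11.2% to 13.0%. The median height of those with a peak was 1 in KYSE150 for both sets, and 4 against 5 in KYSE510.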
